A study of Homo sapiens with 18 samples.

Results

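The comparison described here set a mutant form of the transcription factor POU2F3, L191A, against wild-type (WT) POU2F3 in cells whose own POU2F3 gene had been targeted by CRISPR. NCI-H211 is an established small cell lung cancer line that depends on POU2F3 and resembles tuft cells. The cells carried Cas9 and stably expressed an empty vector (EV), a guide-resistant WT cDNA or a guide-resistant L191A cDNA. Each line was infected with lentivirus carrying sgPOU2F3, which targets the endogenous gene, or sgRosa, a negative control guide, and poly(A) RNA was sequenced on day 5. The members were 6 of the 18 libraries of the series, 3 from the WT line and 3 from the L191A line, all with sgPOU2F3, and every gene whose TPM (transcript level per length and library total) averaged at least 1 over these 6 libraries, 12815 of 19744 gene entries. Each cDNA was carried by 1 stable line, so the substitution and other differences between the lines cannot be told apart. The 3 libraries of a group were separate infections of that line, and the p-values measure the spread between them.

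POU2F3 is an octamer-binding factor of the POU family and the master regulator of tuft cells, the rare chemosensory cells of airway and gut epithelium. Its DNA-binding region reads the octamer motif, and it works with small coactivators of the OCA family, among them POU2AF2 (listed here under its older symbol C11orf53) and POU2AF3 (listed as COLCA2). Tuft cells detect bitter compounds and other luminal cues through taste receptors, a G protein cascade with the phospholipase PLCB2 and the cation channel TRPM5, and answer with eicosanoids, acetylcholine and cytokines. The comparison asks whether the L191A cDNA held the same transcripts as the WT cDNA once the endogenous gene was cut.

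WT replicate 1 stood apart from the other 5 libraries. Ribosomal protein transcripts made up 32.35% of its TPM, against 26.09% and 25.01% in WT replicates 2 and 3 and 19.67% to 21.02% in the L191A libraries. The SD of its log2 differences from WT replicates 2 and 3 was 0.490 and 0.567, against 0.237 between those 2 and 0.198 to 0.220 among the L191A libraries. Values were therefore divided by a median-ratio factor, 0.7557 for this library and 1.045 to 1.088 for the others, and are called scaled TPM below. Library depth could not be recovered from TPM, so no counting error is given. Of the other 12 libraries, L191A replicate 1 with sgRosa was also skewed, with 37.44% of its TPM in ribosomal protein transcripts.

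With limma on log2(scaled TPM + 1) and Benjamini-Hochberg adjustment, 1515 genes were higher in L191A (11.8% of those tested) and 1630 were lower (12.7%) at an adjusted p under 0.05. At least 2-fold differences accounted for 378 of the rises (2.95%) and 435 of the falls (3.39%). The median log2 difference over all genes was 0.01. With TPM as deposited, without the factors, the split was 1711 higher and 903 lower, around a median over all genes of 0.15. Without WT replicate 1 the counts were 3414 higher (26.6%) and 3296 lower (25.7%), and 1515 of the 1515 rises and 1629 of the 1630 falls were called again. The number at 2-fold or more moved less, to 365 higher (2.85%) and 505 lower (3.94%). The counts also moved with other libraries. Without WT replicate 2 they were 986 higher and 1033 lower, and without L191A replicate 1, 2 or 3 they were 692, 711 and 752 higher and 828, 888 and 888 lower. The 6 libraries separated without overlap for 3000 genes higher in L191A (23.4%) and 2935 lower (22.9%). Fold changes are on the log2(scaled TPM + 1) scale, on which weakly expressed genes change less than on a linear scale.

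**Figure D1:**
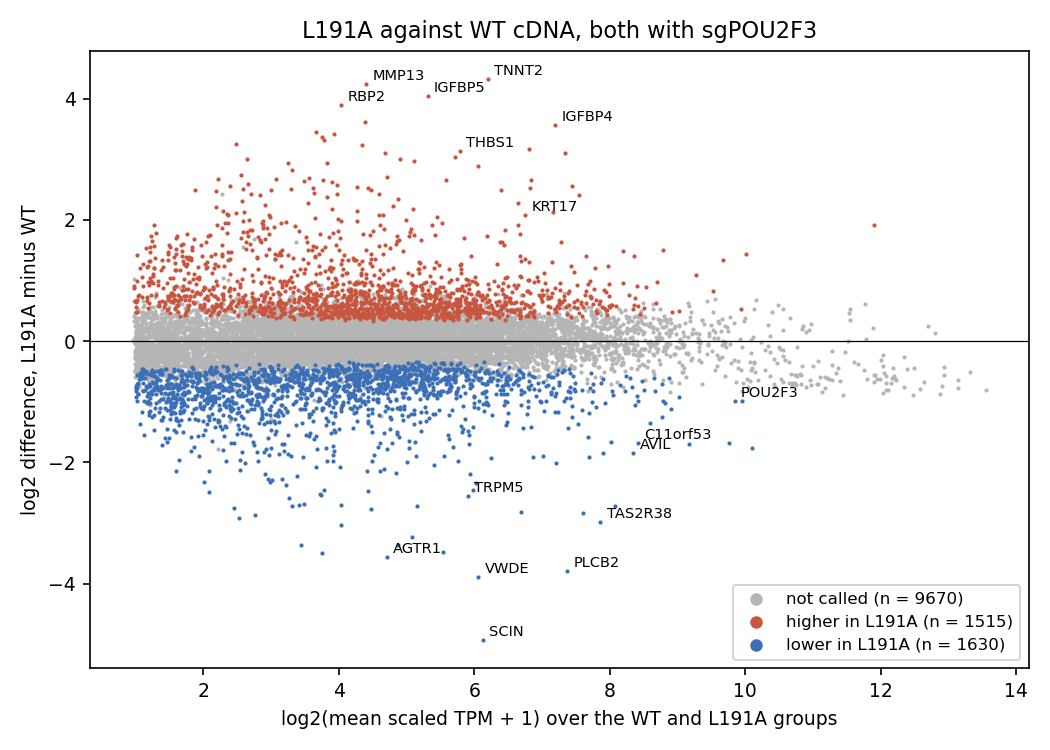
Log2 difference of L191A minus WT, both with sgPOU2F3, for 12815 genes against log2 of the mean scaled TPM + 1 over the WT and L191A groups; each point is a gene, red if higher (1515), blue if lower (1630) and grey if not called. SCIN at −4.93 and TNNT2 at 4.33 are the extremes, and POU2F3 lies among the most abundant genes called lower.

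POU2F3 transcript itself was lower in the L191A line. The gene (chr11:120236640-120319944, plus strand, GENCODE annotation of GRCh38) was measured at 1503, 1219 and 964 scaled TPM in the WT libraries and at 572, 634 and 618 in the L191A libraries. The groups did not overlap, and the log2 difference was −0.99 ± 0.20 SE, limma adjusted p = 0.0102. Without WT replicate 1 it was −0.84 with a limma adjusted p of 0.000229, and the call was lost without L191A replicate 1, 2 or 3 (adjusted p = 0.0681, 0.0528 and 0.054). Reads of the cDNA and of the endogenous gene may both count as POU2F3, so this value does not separate them. In EV cells, which have no cDNA, POU2F3 was 578, 584 and 629 scaled TPM with sgRosa and 248, 259 and 254 with sgPOU2F3. The L191A line with sgPOU2F3 thus held more POU2F3 transcript than EV cells with sgPOU2F3, near the level of EV cells with sgRosa, and less than the WT line. With sgRosa, POU2F3 was 1188, 1506 and 1433 scaled TPM in WT and 324, 1012 and 798 in L191A, the 324 from a skewed library. That difference was −1.10 (limma adjusted p = 0.132), and −0.61 without the skewed library (adjusted p = 0.0213). The part of the difference in POU2F3 transcript between the lines in the results that follow was not tested.

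Among the other octamer factors and coactivators, C11orf53 fell. This gene (chr11:111245805-111286401, plus strand) encodes the coactivator POU2AF2, and its level was 622, 464 and 479 scaled TPM in WT and 159.6, 166 and 154 in L191A. All 3 L191A libraries lay below every WT library, with a log2 difference of −1.69 ± 0.16 SE, limma adjusted p = 0.000207. The L191A level was also below that of EV cells with sgPOU2F3, 256 ± 24.9 scaled TPM (SD, n = 3). COLCA2, the coactivator POU2AF3, was 9.13, 11.9 and 9.32 in WT and 8.97, 6.398 and 8.61 in L191A and did not pass the test (−0.31 ± 0.16 SE, limma adjusted p = 0.204). POU2F1, the widely expressed octamer factor OCT1, was 3.54, 5.41 and 4.53 in WT and 6.36, 5.67 and 6.77 in L191A, with a log2 difference of 0.42 ± 0.16 SE, limma adjusted p = 0.0915. It was called higher under quantile normalization (0.47, adjusted p = 0.0348). POU2F2 and POU2AF1, octamer factor and coactivator of B cells, had a mean under 1 TPM and were not tested.

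The largest falls in L191A were a mixed group of signalling, calcium and transcription genes. Named by rule, they were SCIN, VWDE, PLCB2, AGTR1, PTGS2, ATP2A3, GNG13, LIN28B, SPIB, BIK, TAS2R38 and P2RY8, with log2 differences from −4.93 to −2.92. SCIN (chr7:12570577-12660179, plus strand), the calcium-dependent actin-severing protein scinderin, was 139.7, 125 and 138 scaled TPM in WT and 3.36, 3.46 and 3.503 in L191A, a log2 difference of −4.93 ± 0.11 SE, limma adjusted p = 4.49e-07. EV cells held 9.09 ± 0.825 scaled TPM of SCIN with sgRosa and 3.25 ± 0.2596 with sgPOU2F3 (SD, n = 3), so the high value was that of the WT line, and the L191A level was near that of EV cells with sgPOU2F3 and below that of EV cells with sgRosa. AGTR1 (chr3:148697784-148743008, plus strand), the angiotensin II type 1 receptor, had the same order of levels. It was 53.1, 43.03 and 45.9 in WT and 3.11, 3.47 and 2.66 in L191A (−3.57 ± 0.14 SE, limma adjusted p = 3.91e-06), beside 6.03 ± 0.710 in EV cells with sgRosa. VWDE, a secreted protein with von Willebrand factor D and EGF domains, was 121, 133 and 119 in WT and 7.32, 7.61 and 7.45 in L191A (−3.89 ± 0.11 SE, limma adjusted p = 1.01e-06). Every WT library was above every L191A library for each of these 12 genes, as the naming rule required.

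SPIB and LIN28B also fell. SPIB (chr19:50418938-50431313, plus strand), an Ets-family factor of tuft and B cells, was 60.5, 57.3 and 63.4 scaled TPM in WT and 5.04, 6.06 and 5.53 in L191A, a log2 difference of −3.23 ± 0.12 SE, limma adjusted p = 3.18e-06. In EV cells it was higher with sgPOU2F3 (38.7 ± 2.55) than with sgRosa (18.5 ± 0.9401, SD, n = 3), the direction opposite to its fall in L191A. LIN28B (chr6:104936616-105083332, plus strand), the RNA-binding protein that blocks let-7 maturation, was 20.5, 18.5 and 17.6 in WT and 1.19, 0.934 and 0.711 in L191A (−3.36 ± 0.14 SE, limma adjusted p = 5.22e-06). Its level in EV cells was 0.269 ± 0.04403 with sgRosa, below the L191A level. BIK, a BH3-only cell death protein found in tuft cells, was 36.7, 25.7 and 22.1 in WT and 2.98, 2.37 and 2.12 in L191A (−3.04 ± 0.20 SE, limma adjusted p = 3.16e-05). P2RY8, a G protein-coupled receptor of the purinergic family, was 9.28, 8.38 and 9.93 in WT and 0.422, 0.238 and 0.392 in L191A (−2.92 ± 0.13 SE, limma adjusted p = 8.54e-06). ATP2A3, the calcium pump SERCA3, was 45.97, 94.96 and 113 in WT and 6.34, 6.304 and 5.91 in L191A, and its difference of −3.48 became −3.87 without WT replicate 1, the lowest of its WT libraries.

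**Figure D2:**
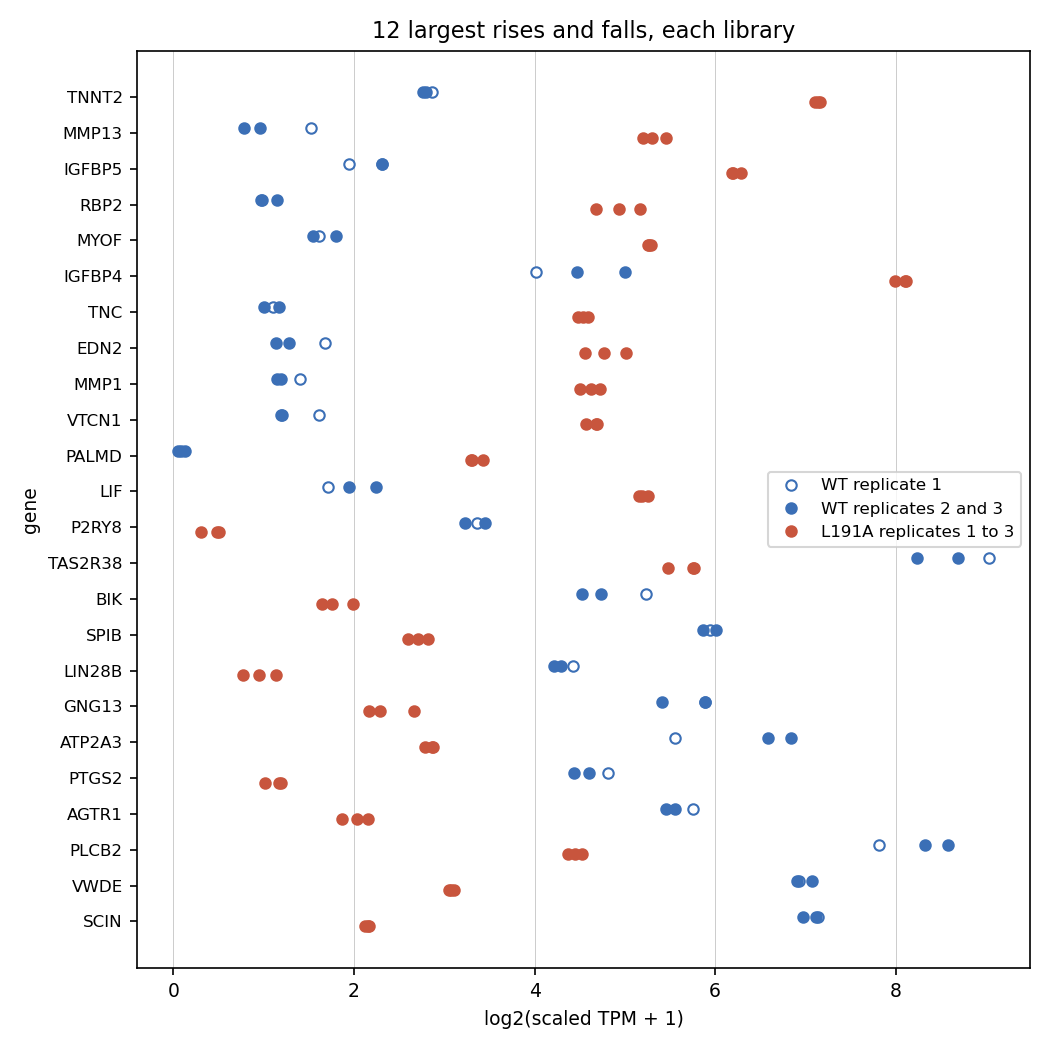
Log2(scaled TPM + 1) in each of the 6 libraries for the 12 largest rises and the 12 largest falls named by rule; blue points are WT libraries, with WT replicate 1 as an open circle, and red points are L191A libraries. WT and L191A libraries are separated for every gene, as the rule required, and the open circle lies apart from the filled blue ones for IGFBP4, MMP13, ATP2A3 and PLCB2, among others.

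Structural and surface markers of tuft cells were lower as a group. Of 48 on the list, 32 had a mean of at least 1 TPM, and of these 23 fell and 1 rose, with a median of −0.99. Without WT replicate 1, 28 fell and 1 rose, with a median of −0.91. Members that passed the filter only through the WT libraries had to be lower. Those that passed only through the L191A libraries had to be higher. The counts of this and the following lists therefore describe the measured genes alone. They stand beside 11.8% higher and 12.7% lower over all genes, and 26.6% and 25.7% without WT replicate 1. AVIL, the actin-binding protein advillin of the tuft cell's microvilli, was 584, 495 and 452 scaled TPM in WT and 136, 138 and 147 in L191A (−1.85 ± 0.14 SE, limma adjusted p = 9.32e-05). The L191A libraries held less AVIL than EV cells with sgPOU2F3, which had 260.5 ± 7.37 (SD, n = 3). SH2D6, an SH2-domain adaptor, was 19.2, 23.4 and 22.7 in WT and 3.196, 2.98 and 2.52 in L191A (−2.54 ± 0.13 SE, limma adjusted p = 1.40e-05). CHAT, which makes acetylcholine, was 43.4, 69.3 and 51.01 in WT and 12.9, 14.1 and 14.2 in L191A (−1.89 ± 0.17 SE, limma adjusted p = 0.0002). BMX, a Tec-family kinase, and LRMP, an endoplasmic reticulum protein of tuft cells, had smaller log2 differences of −1.12 ± 0.23 SE, limma adjusted p = 0.00915, and −0.99 ± 0.22 SE, limma adjusted p = 0.0152. EPHA4, an ephrin receptor, differed by −1.99, and AZGP1, a secreted glycoprotein, by −2.49. BARX2, a homeobox factor of the same list, rose by 0.60 from 1.57, 1.06 and 1.66 to 2.89, 2.49 and 2.59, and its call was lost without WT replicate 2 and without each L191A library (adjusted p = 0.0698 to 0.103).

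Transcription factors of the tuft lineage did not move together. Of 10 measured of 15, 2 rose and 2 fell (2 and 4 without WT replicate 1), and the median was −0.06. SPIB and GFI1B fell. GFI1B, a zinc-finger repressor, was 26.9, 17.03 and 18.5 scaled TPM in WT and 4.86, 5.54 and 5.65 in L191A (−1.76 ± 0.18 SE, limma adjusted p = 0.000331). FOXI1, a forkhead factor of ionocytes, and IKZF2, the Ikaros-family factor Helios, rose by 0.40 and 0.49 on the log2 scale, and both calls were lost with TPM as deposited, without WT replicate 2 and without each L191A library (adjusted p = 0.0623 to 0.152 over these). SOX9 was 43.9, 64.1 and 76.7 in WT and 43.5, 43.4 and 41.6 in L191A (−0.48 ± 0.19 SE, limma adjusted p = 0.106). ASCL2, a stem cell and tuft lineage factor that marks POU2F3-positive tumours, was 37.9, 59.9 and 69.6 in WT and 44.03, 42.5 and 37.7 in L191A, and these ranges overlapped (−0.38 ± 0.21 SE, limma adjusted p = 0.226). WT replicate 1 was the lowest WT library for both. Without it, SOX9 and ASCL2 were called lower, at −0.70 (limma adjusted p = 0.000189) and −0.63 (adjusted p = 0.000567).

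Bitter, sweet and umami taste receptors were the list with the highest share of members lower. These are G protein-coupled receptors through which taste and tuft cells sense chemicals. Of 28 genes, 16 had a mean of at least 1 TPM, 15 of them fell and none rose, with a median of −1.603 (−1.5 and the same count of 15 without WT replicate 1). TAS2R14 was the exception, at −0.31 with a limma adjusted p of 0.403. TAS2R38 (chr7:141972631-141973773, minus strand), the phenylthiocarbamide receptor, was the most abundant of those named, at 524, 414 and 301 scaled TPM in WT and 43.5, 53.5 and 52.9 in L191A (−2.99 ± 0.21 SE, limma adjusted p = 4.65e-05). TAS2R10 was 134, 102 and 83.05 in WT and 17.2, 18.4 and 19.03 in L191A (−2.46 ± 0.17 SE, limma adjusted p = 5.43e-05). TAS2R5 was 29.1, 35.9 and 36.8 in WT and 6.25, 7.58 and 6.87 in L191A (−2.14 ± 0.14 SE, limma adjusted p = 3.00e-05), and TAS2R4 was 22.7, 29.03 and 23.8 and 4.99, 5.001 and 5.46. All WT libraries were above all L191A libraries for these 4 receptors. Receptors of this family have similar sequences and several lie next to each other on chromosomes 7 and 12, so the authors' read assignment could split reads among close relatives.

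Promoter sequences of this family were read because POU2F3 binds the octamer. The octamer ATGCAAAT, searched on both strands from 250 bases before to 50 after the gene start, was present in 5 of the 13 taste receptors with a promoter in the RefSeq table for GRCh38.p14, or 38.5%. It was present in 1.47% of all tested genes with a promoter and in 1.80% of all 27305 promoters of the table. All 5 receptors with an octamer (TAS2R5, TAS2R7, TAS2R10, TAS2R13 and TAS2R60) fell, and so did 7 of the 8 without one, TAS2R38 among them. The windows below, read on the gene's strand 5′ to 3′, show the octamer or its reverse complement in capitals for TAS2R5 (chr7:141790142-141790201, plus strand), TAS2R10 (chr12:10826497-10826556, minus strand), TAS2R13 (chr12:10909586-10909645, minus strand) and TAS2R60 (chr7:143443245-143443304, plus strand), the 4 receptors with an octamer and the largest falls, and for the tuft gene AZGP1 (chr7:99976183-99976242, minus strand). All 5 windows lie upstream of the gene start.
TAS2R5: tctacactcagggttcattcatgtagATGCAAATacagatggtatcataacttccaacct
TAS2R10: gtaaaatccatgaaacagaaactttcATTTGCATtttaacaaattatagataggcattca
TAS2R13: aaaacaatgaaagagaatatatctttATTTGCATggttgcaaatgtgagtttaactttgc
TAS2R60: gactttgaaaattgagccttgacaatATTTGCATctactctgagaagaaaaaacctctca
AZGP1: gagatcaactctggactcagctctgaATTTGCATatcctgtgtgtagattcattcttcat

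Among genes with a promoter, the octamer was in 2.51% of all called lower, 1.71% of all called higher and 1.47% of all tested. It was in 16 of 329 genes at least 2-fold lower in L191A (4.86%), which include the 5 taste receptors above. Of 290 genes at least 2-fold higher, it was in 6 (2.07%). TNC, one of the largest rises, was among those 6, and its window is shown because it holds the same 8 letters in a gene that moved the other way (chr9:115118313-115118372, minus strand).
TNC: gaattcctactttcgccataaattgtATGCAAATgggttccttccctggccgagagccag
The AP-1 motif TGANTCA, in which N is any base, was in 6.38% of the promoters of genes at least 2-fold lower, 7.24% of those higher and 4.22% of all tested, and in 7.76% of all 27305 promoters of the table. The TEAD motif GGAATG was in 11.6%, 15.2% and 10.7%, and in 14% of the whole table, so for AP-1 both changed sets lay below the share over the whole table and for TEAD only the genes that were higher lay above it. A match says only that these letters are in the window. Of the 12815 genes tested, 10441 (81.5%) had a promoter in the table.

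Genes that carry the taste signal inside the cell were lower too. Of 14 measured of 16, 10 fell and 1 rose, with a median of −1.85, and without WT replicate 1, 12 fell and 1 rose. PLCB2 (chr15:40278176-40307935, minus strand), the phospholipase that receptors activate, was 224, 382 and 319 scaled TPM in WT and 20.8, 21.97 and 19.7 in L191A (−3.79 ± 0.19 SE, limma adjusted p = 1.11e-05). GNG13, the gamma subunit of the taste G protein, was 58.2, 41.5 and 58.1 in WT and 3.88, 3.47 and 5.33 in L191A (−3.36 ± 0.18 SE, limma adjusted p = 1.62e-05). TRPM5, the cation channel at the end of the cascade, was 56.4, 125 and 126 in WT and 14.9, 16.2 and 15.4 in L191A (−2.56 ± 0.28 SE, limma adjusted p = 0.000523). WT replicate 1 held less TRPM5 than the other WT libraries and was still above every L191A library. CALHM1, a channel for ATP release, was 8.34, 8.99 and 8.24 in WT and 0.5403, 0.344 and 0.365 in L191A (−2.75 ± 0.13 SE, limma adjusted p = 8.70e-06), and PLCG2, a second phospholipase, differed by −1.93. ITPR3, the inositol trisphosphate receptor that opens calcium stores, was the member that rose, from 1.82, 3.64 and 2.96 in WT to 5.32, 5.52 and 5.99 in L191A (0.83 ± 0.19 SE, limma adjusted p = 0.0161). Its call was lost without each L191A library (adjusted p = 0.0556 to 0.0703).

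Enzymes of eicosanoid synthesis, the lipid mediators that tuft cells release, fell in part. Of 10 measured of 14, 7 fell and none rose, with a median of −0.98, against 7 and 1 without WT replicate 1. PTGS2 (chr1:186671791-186680427, minus strand), the inducible cyclooxygenase, was 27.1, 23.3 and 20.6 scaled TPM in WT and 1.24, 1.28 and 1.02 in L191A (−3.49 ± 0.14 SE, limma adjusted p = 4.27e-06). PTGS1, the constitutive cyclooxygenase, was 16.8, 14.5 and 17.6 in WT and 1.54, 1.601 and 1.69 in L191A (−2.72 ± 0.13 SE, limma adjusted p = 8.54e-06). In EV cells PTGS1 was 16.7 ± 1.55 with sgRosa and 13.1 ± 1.297 with sgPOU2F3 (SD, n = 3), so its L191A level was below both. PLA2G4A, which frees arachidonic acid, differed by −2.68, and ALOX5, the leukotriene-forming lipoxygenase, by −1.88. The summed level of the list was 703 to 859.6 in WT and 729 to 834 in L191A, which overlapped, since PTGES3, a prostaglandin synthase cochaperone at a mean of 596.1 TPM, held most of it and did not pass the test (0.40 ± 0.16 SE, limma adjusted p = 0.102).

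The largest rises in L191A were TNNT2, MMP13, IGFBP5, RBP2, MYOF, IGFBP4, TNC, EDN2, MMP1, VTCN1, PALMD and LIF, with log2 differences from 3.23 to 4.33. TNNT2 (chr1:201359008-201377762, minus strand), cardiac troponin T, was 6.28, 5.98 and 5.78 scaled TPM in WT and 136, 143 and 140.1 in L191A (4.33 ± 0.10 SE, limma adjusted p = 4.71e-07). EV cells with sgPOU2F3 held 26.9 ± 2.16 and EV cells with sgRosa 1.54 ± 0.272 (SD, n = 3), so the L191A line exceeded both. MMP13 (chr11:102942995-102955734, minus strand), a collagenase, was 1.88, 0.943 and 0.715 in WT and 42.8, 38.5 and 35.9 in L191A (4.23 ± 0.20 SE, limma adjusted p = 8.54e-06). MYOF, the membrane repair protein myoferlin, was 2.06, 2.47 and 1.91 in WT and 38.2, 37.1 and 37.4 in L191A (3.62 ± 0.12 SE, limma adjusted p = 2.71e-06). RBP2 (chr3:139452884-139480747, minus strand), an intestinal retinol-binding protein, was 0.970, 1.22 and 0.962 in WT and 29.7, 24.6 and 35.0 in L191A (3.90 ± 0.15 SE, limma adjusted p = 4.09e-06), and PALMD (chr1:99645943-99694541, plus strand), palmdelphin, was 0.0635, 0.0343 and 0.0936 and 9.79, 8.86 and 8.801 (3.25 ± 0.13 SE, limma adjusted p = 4.02e-06). Neither RBP2 nor PALMD exceeded a mean of 1 scaled TPM in EV cells with either guide. TNC, the matrix protein tenascin C, EDN2, the vasoactive peptide endothelin 2, and VTCN1, the immune checkpoint ligand B7-H4, rose by 3.45, 3.41 and 3.31. Every L191A library was above every WT library for each of these 12 genes, as the naming rule required.

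Targets of the transcriptional coactivators YAP and TAZ, which respond to cell shape and attachment, were higher. Of 24 measured of 28, 19 rose and none fell, with a median of 1.66, beside 0.01 over all genes. Without WT replicate 1, 20 rose, none fell and the median was 1.48. IGFBP3, a binding protein of insulin-like growth factors, was 22.96, 20.97 and 20.5 scaled TPM in WT and 203, 203 and 195 in L191A (3.16 ± 0.11 SE, limma adjusted p = 2.71e-06). THBS1, the matrix protein thrombospondin 1, was 9.16, 10.7 and 11.3 in WT and 100.5, 102 and 92.4 in L191A (3.13 ± 0.12 SE, limma adjusted p = 3.91e-06). AMOTL2, an angiomotin that binds YAP, was 9.24, 10.99 and 11.1 in WT and 92.9, 95.7 and 90.1 in L191A (3.04 ± 0.12 SE, limma adjusted p = 3.91e-06). FSTL1, a secreted follistatin-like protein, was 37.5, 28.2 and 32.5 in WT and 299.6, 290.1 and 273 in L191A (3.10 ± 0.13 SE, limma adjusted p = 6.19e-06). The L191A libraries of each gene lay within a narrow range, well above every WT library. The list's summed level was 389 to 524 in WT and 1602 to 1758 in L191A.

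Genes of insulin-like growth factor signalling were higher, with 7 of 9 measured rising, none falling and a median of 1.69. Leaving out WT replicate 1, 8 rose and 1 fell, at a median of 1.33. Binding proteins led this list. IGFBP4 (chr17:40443461-40457731, plus strand) was 15.2, 21.2 and 31.1 scaled TPM in WT and 274, 276 and 255 in L191A (3.57 ± 0.22 SE, limma adjusted p = 3.00e-05). IGFBP5 (chr2:216672105-216695525, minus strand) was 2.85, 3.97 and 3.94 in WT and 72.1, 72.7 and 77.2 in L191A (4.04 ± 0.14 SE, limma adjusted p = 2.71e-06), and IGFBP2 differed by 2.97. The urokinase system and collagenases, which cut extracellular matrix, had 9 of 11 members higher and none lower, with a median of 1.37. Beside MMP13 these included MMP1 (3.37 ± 0.13 SE, limma adjusted p = 4.09e-06), MMP3 (2.57) and PLAU, urokinase itself, which was 2.57, 2.71 and 2.65 in WT and 20.4, 19.9 and 19.7 in L191A (2.53 ± 0.11 SE, limma adjusted p = 6.19e-06). MMP3 had a mean under 1 scaled TPM in EV cells with either guide.

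Keratin, junction and matrix genes of other epithelial and mesenchymal states were higher in part. Of 12 basal and squamous markers measured of 21, 7 rose and none fell (median 0.94), against 8 and 2 without WT replicate 1. KRT17, a keratin of basal and injured epithelium, was 44.8, 38.2 and 37.5 scaled TPM in WT and 181, 188 and 152 in L191A (2.08 ± 0.14 SE, limma adjusted p = 3.29e-05), and LAMB3, a laminin chain of the basement membrane, rose by 2.18. KRT17 in L191A was still below the 459.5 ± 49.8 of EV cells with sgPOU2F3 (SD, n = 3). Of 22 simple epithelial genes, 12 rose and none fell (median 0.47), while 3 were called lower without WT replicate 1. CDH1, the adhesion protein E-cadherin, was 68.3, 66.99 and 88.9 in WT and 256, 245 and 201 in L191A (1.64 ± 0.16 SE, limma adjusted p = 0.000287). Of 16 mesenchymal genes measured of 24, 8 rose and none fell (median 0.52), while 2 were called lower without WT replicate 1. VIM, vimentin, was 38.9, 35.9 and 48.8 in WT and 162, 156 and 154 in L191A (1.92 ± 0.14 SE, limma adjusted p = 6.03e-05), FN1, fibronectin, rose by 1.75, and SNAI2, the repressor Slug, by 1.94. The E-cadherin gene and these mesenchymal genes thus rose in the same libraries.

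Lists of inflammatory and stress-responsive genes split more. Of 11 AP-1 factors, 3 rose and 1 fell, and their median of 0.29 changed sign to −0.07 without WT replicate 1. FOSL1, a Fos-family subunit of AP-1, was 4.02, 3.88 and 2.67 scaled TPM in WT and 28.2, 25.1 and 24.3 in L191A (2.58 ± 0.15 SE, limma adjusted p = 2.42e-05). FOSL2 and JUN rose by 1.80 and 1.19. Among NF-kB targets and other inflammatory genes, 10 of 20 rose and none fell (median 0.58), and without WT replicate 1, 14 rose and 4 fell. LIF (chr22:30240447-30246851, minus strand), a cytokine of the interleukin 6 family, was 2.27, 3.75 and 2.86 in WT and 37.2, 35.4 and 34.8 in L191A (3.23 ± 0.15 SE, limma adjusted p = 9.06e-06), and NFKB1, ICAM1 and CSF1 rose by 1.43, 1.39 and 1.41. Interferon-induced genes split, with 6 of 19 higher and 3 lower (10 and 4 without WT replicate 1). IFITM3, a membrane protein that limits virus entry, was 216, 128 and 111 in WT and 329, 358 and 354 in L191A (1.25 ± 0.24 SE, limma adjusted p = 0.00706), and IFI6 was 25.3, 16.6 and 22.4 and 5.804, 5.76 and 2.895 (−1.97 ± 0.25 SE, limma adjusted p = 0.00097). Of 17 genes of MHC class I antigen presentation, 2 rose, a share near the 11.8% of all genes, and 1 fell. In the 5 libraries without WT replicate 1, 8 rose and 1 fell, beside 26.6% and 25.7% of all genes.

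Feedback genes of ERK signalling also split, with 6 of 18 higher and 3 lower and a median of 0.07 (−0.05 without WT replicate 1). CCND1, cyclin D1, was 166, 204 and 224 scaled TPM in WT and 399.9, 402 and 350.5 in L191A (0.96 ± 0.16 SE, limma adjusted p = 0.00356), and DUSP5, an ERK phosphatase, rose by 1.42. ETV5, an Ets factor induced by ERK, was 20.4, 20.1 and 22.1 in WT and 6.15, 6.88 and 7.05 in L191A (−1.51 ± 0.12 SE, limma adjusted p = 8.28e-05), and ETV4 differed by −0.82. Both Ets factors were lower in L191A while DUSP5 and CCND1 were higher, and the ETV4 call was lost with TPM as deposited (limma adjusted p = 0.0693).

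Genes of ribosome assembly and, in part, DNA replication were higher in L191A, while few mitosis genes passed the test. Of 29 ribosome biogenesis genes, 21 rose and none fell (median 0.71), and without WT replicate 1, 27 rose. UTP20, a factor of the small subunit processome, was 8.62, 10.4 and 10.1 scaled TPM in WT and 26.2, 25.9 and 25.6 in L191A (1.33 ± 0.12 SE, limma adjusted p = 0.000169). Of 44 DNA replication genes, 14 rose and none fell (median 0.40), and 38 rose without WT replicate 1, when 26.6% of all genes and 13 of 24 housekeeping genes were called higher. MCM4, a subunit of the replicative helicase, was 40.2, 41.8 and 40.3 in WT and 78.6, 79.6 and 78.8 in L191A (0.94 ± 0.10 SE, limma adjusted p = 0.000488). Of 36 mitosis genes, 1 rose and 2 fell (median −0.12), against 6 and 4 without WT replicate 1 (median 0.05). None of 78 cytosolic ribosomal protein genes passed the test, at a median of −0.62, and 53 were called lower without WT replicate 1, at −0.33. Their share of a library was at least 25.01% of TPM in WT and at most 21.02% in L191A, so the groups did not overlap in this share with or without the skewed library.

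Transcripts of the integrated stress response, which ATF4 drives when amino acids or protein folding fail, were lower with sgPOU2F3. Of 26 measured of 28 genes, 16 fell and 2 rose (median −0.74), and without WT replicate 1, 19 fell and 2 rose (median −0.65). DDIT3, the factor CHOP, was 112, 74.03 and 63.9 scaled TPM in WT and 25.1, 27.8 and 35.1 in L191A (−1.45 ± 0.22 SE, limma adjusted p = 0.00238). TRIB3, a pseudokinase induced by ATF4, was 60.7, 52.8 and 58.2 in WT and 21.4, 25.2 and 26.8 in L191A (−1.20 ± 0.13 SE, limma adjusted p = 0.000416), and PCK2, the mitochondrial PEP carboxykinase, differed by −1.75. VLDLR, a lipoprotein receptor on the list, rose by 0.75. TRIB3 and DDIT3 were 37.1 ± 3.55 and 36.8 ± 6.01 in EV cells with sgPOU2F3 (SD, n = 3), between the WT and L191A levels. Targets of p53 split, with 4 of 22 higher and 7 lower (median −0.13), and 5 and 9 without WT replicate 1. TP53INP1, an autophagy and stress gene of this list, was 10.2, 11.9 and 11.1 in WT and 4.58, 3.66 and 4.05 in L191A (−1.24 ± 0.13 SE, limma adjusted p = 0.000396). AEN, of the same list, rose by 0.87 (limma adjusted p = 0.00102).

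**Figure D3:**
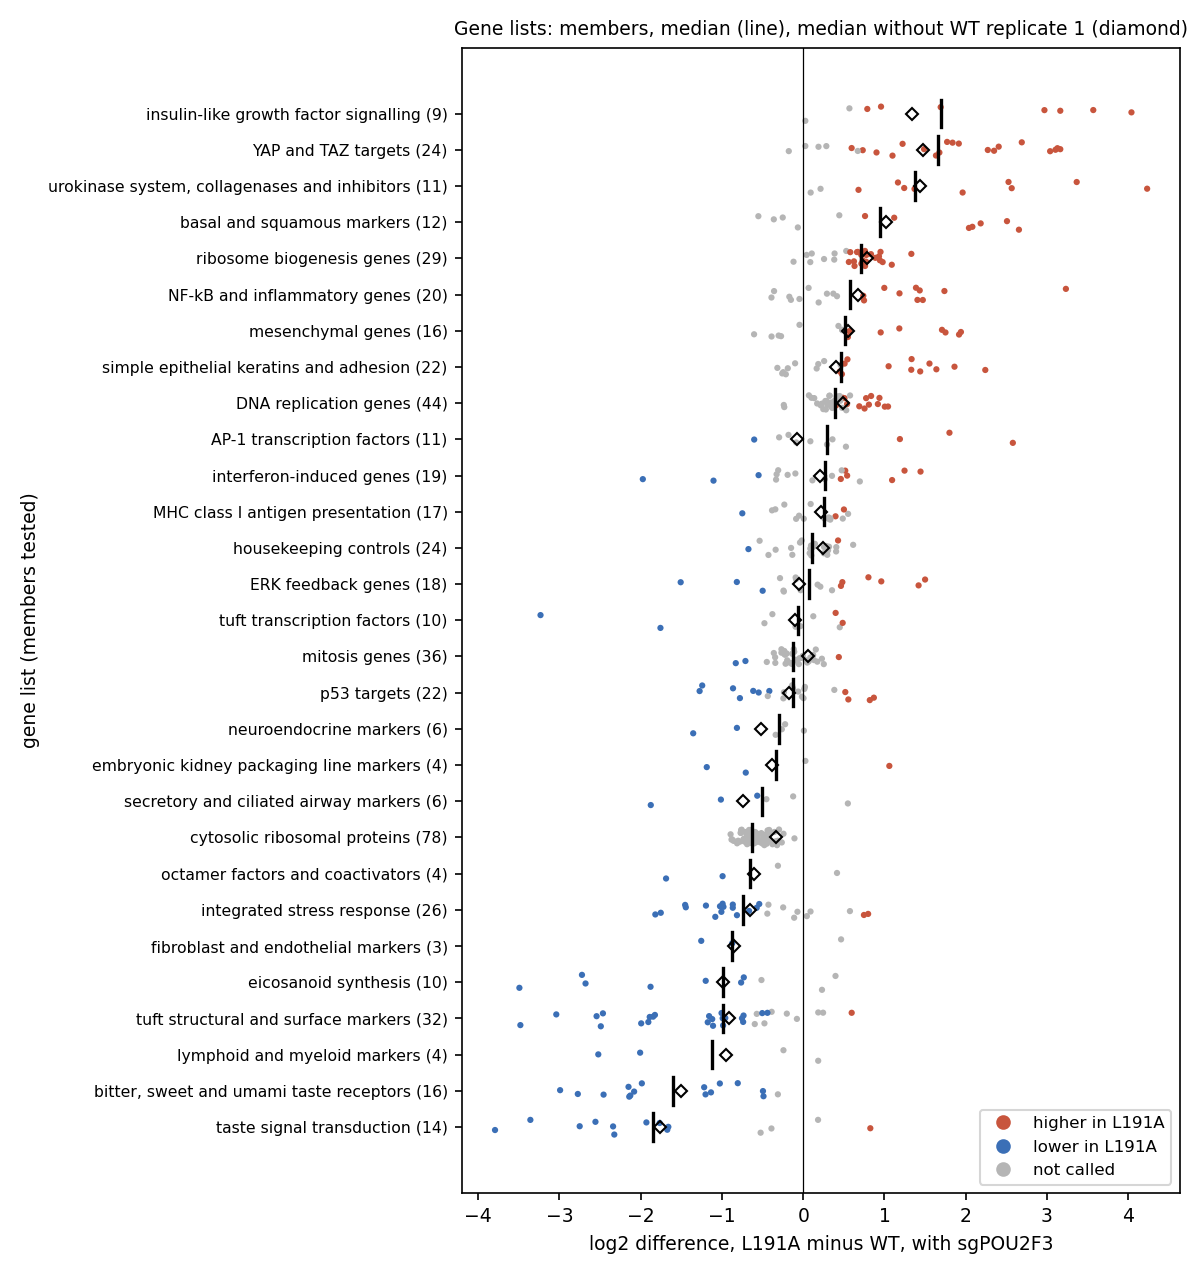
Log2 difference of L191A minus WT for the measured members of each of 29 gene lists, with sgPOU2F3; points are genes (red higher, blue lower, grey not called), the line is the list's median and the diamond its median without WT replicate 1. The taste signal, taste receptor and tuft structural lists lie below 0, at medians of −1.85, −1.603 and −0.99, the tuft transcription factors lie near 0 at −0.06, and the YAP and TAZ and insulin-like growth factor lists lie highest, at 1.66 and 1.69.

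Most markers of other cell types had a mean under 1 TPM, and some of those measured moved. Of 20 neuroendocrine markers, 6 had a mean of at least 1 TPM and 2 fell, DLL3, a Notch ligand (−1.35 ± 0.15 SE, limma adjusted p = 0.000477), and CALCA, the calcitonin gene (−0.82 ± 0.13 SE, limma adjusted p = 0.00298). When WT replicate 1 was left out, 4 of the 6 were called lower, at a median of −0.52 in place of −0.30. The CALCA call was lost with TPM as deposited (limma adjusted p = 0.0751). NEUROD1, a neuroendocrine factor, had a mean of 0.809 TPM, and the summed level of the list, 824 to 1197 in WT and 849 to 972 in L191A scaled TPM, was mostly UCHL1, a neuronal deubiquitinase at a mean of 810.1 TPM that did not pass the test. Of 16 lymphoid and myeloid markers, 4 were measured and 2 fell, CD79B and CD14, which were 26.5, 18.9 and 19.5 and 11.2, 8.83 and 6.66 scaled TPM in WT and 2.75, 3.39 and 2.60 and 1.499, 1.34 and 1.41 in L191A. The summed level of that list was 31.2 to 43.3 in WT and 7.26 to 9.06 in L191A, and CD3D, CD3E, CD2, MS4A1 and TYROBP were listed at 0. Fibroblast and endothelial markers had 3 of 12 measured and 2 lower (1 higher and 2 lower without WT replicate 1), with a summed level of 17.8 to 20.6 in WT and 9.03 to 9.604 in L191A, and airway markers had 6 of 16 measured and 3 lower (1 higher and 4 lower without it), with 173 to 240.5 in WT and 221 to 241 in L191A. Markers of the embryonic kidney line often used to package lentivirus had 4 of 10 measured, 1 higher and 2 lower, with 137 to 155 in WT and 149 to 154 in L191A. The part of these genes in the other results was not tested. Of 24 housekeeping genes, 1 rose and 1 fell, with a median of 0.11, against 13 and 2 without WT replicate 1 at a median of 0.25.

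The L191A minus WT difference was next set beside the response of EV cells to sgPOU2F3, which comes from 6 other libraries. In EV cells 394 of the same genes were called and at least 2-fold lower with sgPOU2F3 than with sgRosa (3.07% of those tested), and 542 were at least 2-fold higher (4.23%). Of the 394, 273 (69.3%) were lower in L191A than in WT and 6 were higher, with a median of −0.85, beside 12.7% lower and 11.8% higher over all genes, and 368 had a difference below 0. Of the 542, 386 (71.2%) were higher in L191A and 16 were lower, with a median of 0.95, and 485 had a difference above 0. Without WT replicate 1 the medians were −0.89 and 0.94, with 332 lower of 394 (84.3%) and 446 higher of 542 (82.3%), beside 25.7% and 26.6% over all genes. In the other direction, 332 of the 378 genes at least 2-fold higher in L191A (87.8%) were among the 2936 called higher in EV cells with sgPOU2F3 (22.9% of those tested), of which they made up 11.3%. Likewise 327 of the 435 at least 2-fold lower (75.2%) were among the 2894 called lower there (22.6%), again 11.3% of them. In the opposite direction, 7 of the 378 and 15 of the 435 genes were called.

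**Figure D4:**
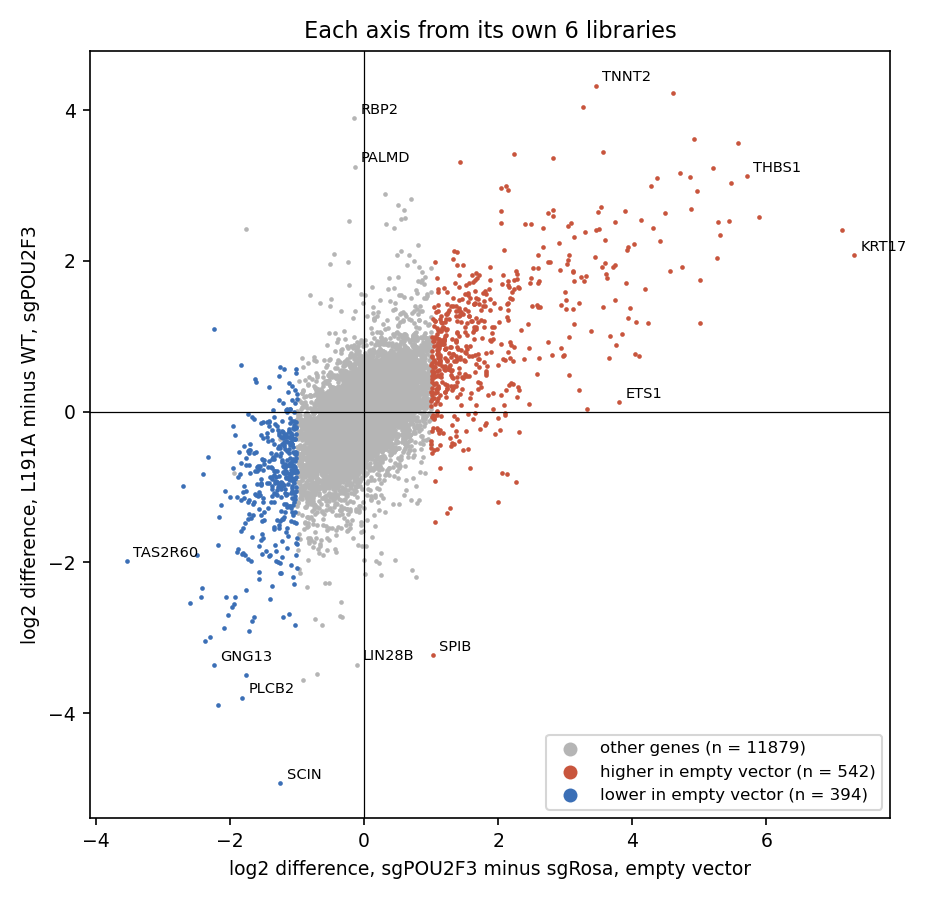
Log2 difference of L191A minus WT with sgPOU2F3 (vertical) against that of sgPOU2F3 minus sgRosa in EV cells (horizontal) for 12815 genes; each axis comes from its own 6 libraries, red and blue points are the 542 and 394 genes at least 2-fold higher and lower in EV cells. Most red points lie above 0 (485 of 542) and most blue points below 0 (368 of 394), while RBP2, PALMD and LIN28B lie near 0 on the horizontal axis and SPIB lies at opposite signs.

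Single genes differed in how the 2 responses compared. KRT17 had the larger difference in EV cells, 7.30 against 2.08 in L191A minus WT, as did THBS1 (5.71 and 3.13) and FOSL1 (5.88 and 2.58). SCIN (−1.25 in EV cells and −4.93), PLCB2 (−1.82 and −3.79) and AGTR1 (−0.92 and −3.57) had the larger difference in L191A minus WT. RBP2, PALMD and LIN28B were −0.14, −0.14 and −0.11 in EV cells. These pairs of values come from separate contrasts, and the difference between them was not tested.

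The same lines with the control guide address whether L191A and WT differed when the endogenous gene was not targeted, in libraries that the main comparison does not use. With sgRosa, 985 genes were higher in L191A (7.69%) and 1416 were lower (11%). These counts rose to 3832 higher (29.9%) and 3707 lower (28.9%) without the skewed L191A replicate 1. Over the 6 libraries 227 of the 435 genes at least 2-fold lower with sgPOU2F3 (52.2%) were also called lower, 16.03% of all called lower there, and 130 of the 378 at least 2-fold higher (34.4%) were called higher, 13.2% of those called higher. Over the 5 libraries without L191A replicate 1 these were 374 of 435 (86.0%), 10.1% of all called lower, and 225 of 378 (59.5%), 5.87% of those called higher. Of the 16 taste receptors, 8 were called lower with sgRosa and none higher, and 14 and none without the skewed library. TAS2R38 (−2.60, limma adjusted p = 0.0905) and TAS2R10 (−0.65, adjusted p = 0.25) did not pass over the 6. Of the 14 taste signal genes, 10 were lower and none higher, and 11 and none without that library. ITPR3, which rose with sgPOU2F3, was −0.41 with sgRosa (limma adjusted p = 0.258). Of 29 ribosome biogenesis genes, 18 were higher with sgRosa and none lower, and 29 were higher without that library. Of 44 DNA replication genes, 31 and 41 were higher and none lower. Of 36 mitosis genes, 3 and 28 were higher and none lower. The integrated stress response list had a median of 0.25 with 1 higher and 1 lower, and 0.09 with 8 and 5 without that library. Of 24 YAP and TAZ targets, 11 were higher and 2 lower (median 0.63), and 13 and 4 without that library (median 0.56). Of 9 insulin-like growth factor genes, 4 were higher and 1 lower (median −0.08), and 5 and 4 without that library (median 0.46). Without the skewed library, PLCB2 differed by −3.95 (limma adjusted p = 1.02e-07), GNG13 by −3.07 (adjusted p = 1.95e-06) and TRPM5 by −2.73 (adjusted p = 1.29e-06), and TRPM5 over all 3 libraries was 305 ± 22.4 scaled TPM in WT and 49.6 ± 7.96 in L191A with sgRosa (SD, n = 3).

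A test of the difference itself, the interaction of guide and cDNA over 12 libraries, called 337 genes with a higher value with sgPOU2F3 (2.63%) and 109 with a lower one (0.851%), and 1592 (12.4%) and 1984 (15.5%) without both skewed libraries. Of the 28 measured genes among the rule-named ones and the octamer family it called 8, and 16 without both skewed libraries. The 8 added there were BIK, IGFBP4, IGFBP5, MMP13, MYOF, RBP2, TAS2R38 and VWDE, with adjusted p of 0.00087 to 0.0308. TNC differed by 0.65 with sgRosa and 3.45 with sgPOU2F3, an interaction of 2.80 ± 0.31 (SE, limma adjusted p = 0.000686). TNNT2 differed by 1.76 and 4.33 (interaction 2.56, adjusted p = 0.007) and C11orf53 by −0.19 and −1.69 (interaction −1.5, adjusted p = 0.0141). C11orf53 was 503, 489 and 480.4 scaled TPM in WT and 557, 391 and 364 in L191A with sgRosa. The lines were thus closer for this coactivator with the control guide, and the L191A value of 557 came from the skewed library. Without that library the difference with sgRosa was −0.38 and passed the test (limma adjusted p = 0.017). PLCB2 (0.25, adjusted p = 0.505), AGTR1 (−0.02, adjusted p = 0.951) and LIN28B (−0.11, adjusted p = 0.766) had no interaction that passed the test.

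**Figure D5:**
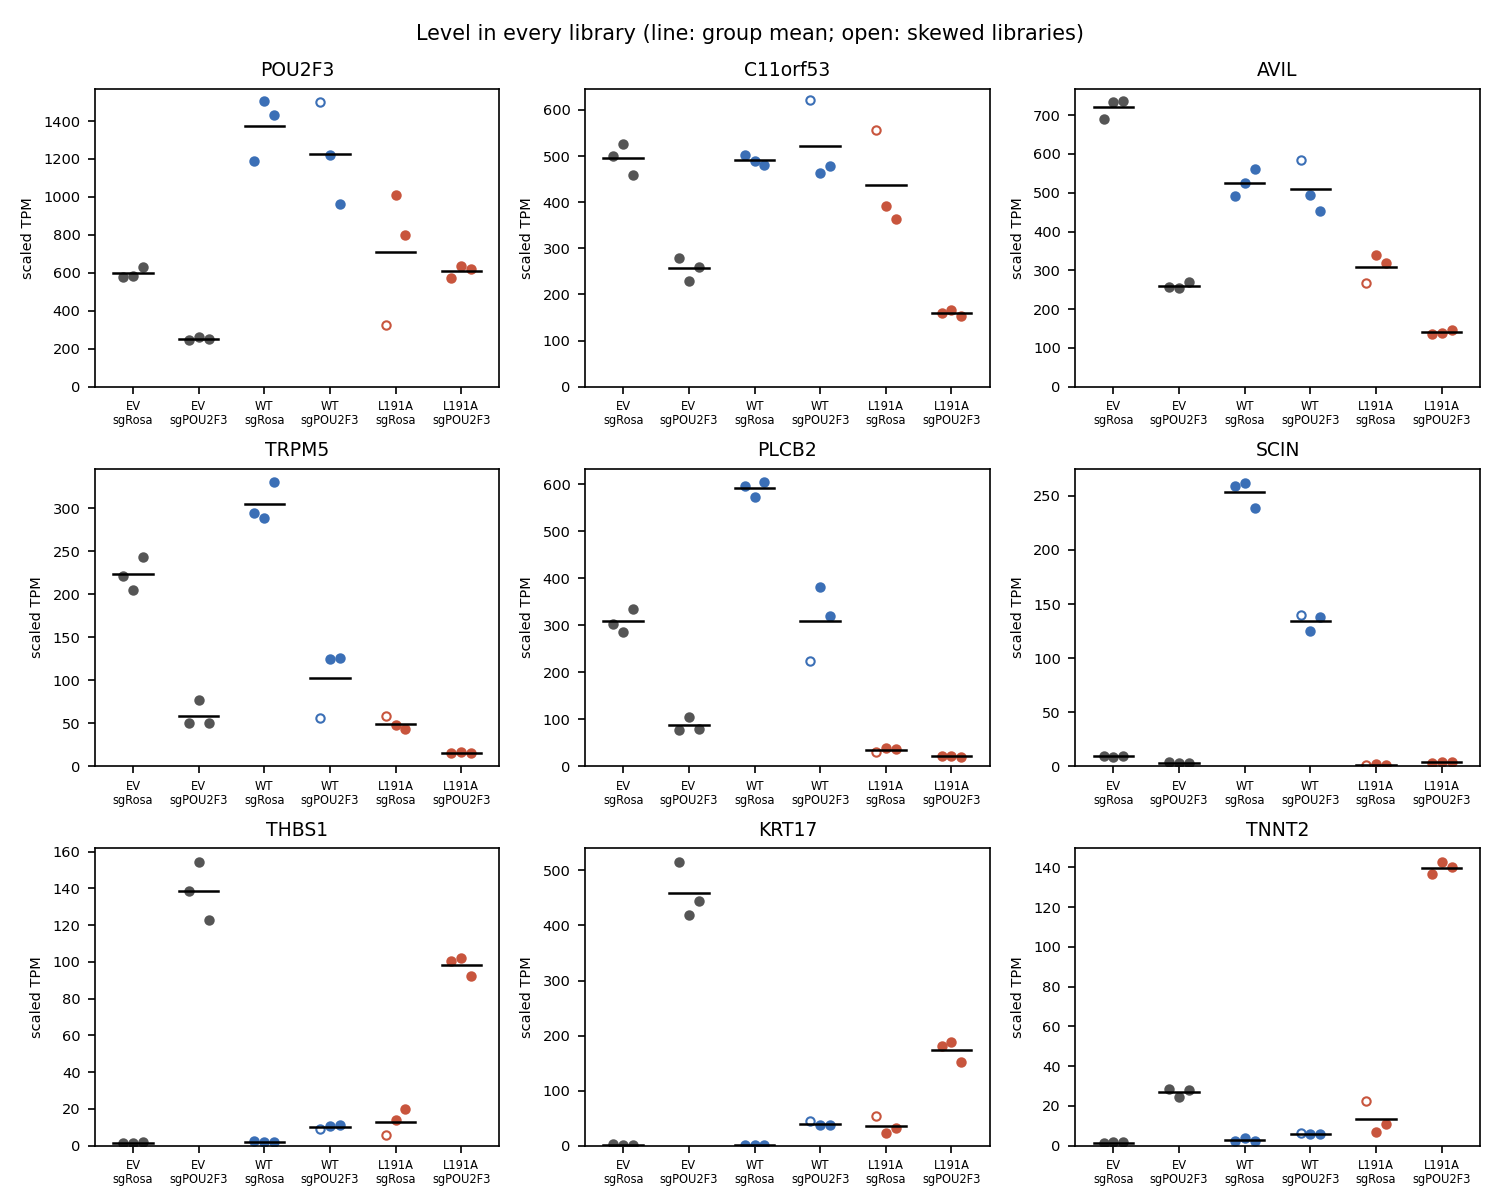
Scaled TPM of 9 genes in all 18 libraries, by line (EV grey, WT blue, L191A red) and guide; points are libraries, open points are the 2 skewed ones and lines are group means. TRPM5 and PLCB2 are lowest in the L191A line with sgPOU2F3, SCIN is high in the WT line only among these 3 lines, and TNNT2 is highest in L191A with sgPOU2F3 (139.7 ± 3.07, SD, n = 3).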

How the data were processed

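RNA from 18 libraries of NCI-H211 cells was analysed as the TPM values deposited by the authors. Per the submitters' processing notes, kallisto and hg38 were used; its version, transcripts and strandedness are not given in the sources. RNA was poly(A)-selected, extracted with TRIzol and made into TruSeq libraries, per the labels' protocols. Depth is unknown, because TPM keeps none.

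Of 19875 entries, 131 that named no gene (1.64% to 2.43% of TPM) were left out, and 97.8% of the remaining 19744 had a name in the tables. The 12815 genes averaging 1 TPM or more in the 6 libraries were kept. Each library was divided by its median ratio over 12679 of these genes to the geometric mean of the 6, log2(value + 1) was fitted with limma 3.58.1 (R 4.3.3, variance trend), and p-values were adjusted by Benjamini-Hochberg over all genes. EV and sgRosa contrasts used their own 6 libraries, and the interaction used 12. On simulated data 72.5% of 2-fold changes were recovered with 6 libraries (0 false calls) and 99.0% with the 5 without WT replicate 1 (10 false calls). Only 200 genes were changed there, and noise was independent between genes apart from the skew of WT replicate 1. Far more genes were called in the data, so these rates need not hold for them.

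The 12 largest rises and falls were named among genes called with and without WT replicate 1, without overlap and with at least 5 scaled TPM in the higher group, passing over clone, LOC, LINC, antisense, microRNA and open-reading-frame symbols. For each list up to 4 called members with the smallest p per direction could be named, with the defining tuft and taste markers. TAS2R13, TAS2R14 and TAS2R60 were named after their values were seen. The members and lists were chosen with earlier results of these data known. Alternatives were other pseudocounts, filters, scalings, weights, fits and samples, including the replicate number as a block. Coordinates are from GENCODE 29 and promoters from RefSeq.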

Additional observations from a re-analysis of the deposited data

Results flagged for a closer look

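The interaction term in limma over 12 libraries was screened for the 28 measured genes among the rule-named ones and the octamer family. For 8 of these 28 the L191A minus WT difference itself differed between the guides. The value for TNC was 2.80, for TNNT2 2.56, for EDN2 2.41, for LIF 1.96 and for VTCN1 1.36, each a rise that was larger with sgPOU2F3. SPIB had −1.34 and C11orf53 −1.5, falls that were larger with sgPOU2F3. SCIN had 1.75, since its difference of −6.68 with sgRosa was larger in size than that of −4.93 with sgPOU2F3. Without both skewed libraries these values were 2.51 for TNC, 3.02 for TNNT2, 2.87 for EDN2, 1.44 for LIF, 1.52 for VTCN1, −1.23 for SPIB, −1.18 for C11orf53 and 1.73 for SCIN, and all 8 passed the test again. SCIN in the WT line was 259, 262 and 238 scaled TPM with sgRosa and 139.7, 125 and 138 with sgPOU2F3, so its level was lower with sgPOU2F3 in all 3 libraries. EDN2 in the L191A line was 4.497, 1.38 and 2.52 with sgRosa and 22.6, 31.4 and 26.2 with sgPOU2F3. Genes named from the lists were outside this screen, and some of them also passed the interaction test. FOXI1 had −2.43 (limma adjusted p = 0.000124), GFI1B −1.80 (adjusted p = 0.00213) and CDH1 2.03 (adjusted p = 0.00462). KRT17 had −1.76 (adjusted p = 0.0282), since its difference was 3.84 with sgRosa and 2.08 with sgPOU2F3. TFF3, an airway marker, had −4.12 (adjusted p = 0.00484). It was higher in L191A with sgRosa (2.24) and lower with sgPOU2F3 (−1.88). Others did not pass, such as VIM (−0.01, limma adjusted p = 0.979). Groups of 3 libraries were too small for a test of single outlying libraries.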

How the results depend on the processing

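None of the 126 genes followed through the alternatives changed direction, while the medians of 6 gene lists did. These 126 were the rule-named genes, the tested octamer family and the called list members with the smallest p. Other genes in the text, such as AVIL, TRPM5, CHAT, BMX, LRMP, TAS2R13 and LGALS1, were not among them. Counts of calls moved most, and the cause was not tested. Against 1515 higher and 1630 lower, a fit of 16 libraries gave 2818 and 2906, array weights 3776 and 3733, and leaving out 1 library 692 to 3414 and 828 to 3296. TPM as deposited gave 1711 higher and 903 lower, with a median over all genes of 0.15. For L191A minus WT with sgRosa, 2401 calls became 1432 with TPM as deposited, 6394 with 18 libraries, 7342 with 16, 7636 with array weights, 4176 with the length trend removed and 197 to 7539 without 1 library. For the interaction, 446 calls became 237 at a mean of 5 TPM, 793 with quantile normalization, 1828 with 18 libraries, 1991 with 16, 4646 with array weights, 743 with the length trend removed, 3576 without both skewed libraries and 198 to 1755 without 1 library. The median over genes lower in EV cells (−0.85) was −0.92 at a mean of 5 TPM, −0.62 with TPM as deposited, −0.52 for a set at 1.5-fold and −1.99 at 4-fold, and −0.89 to −0.74 without 1 library. That over genes higher in EV cells (0.95) was 1.25 with TPM as deposited, 0.51 for a set at 1.5-fold and 1.72 at 4-fold, and 0.85 to 1.02 without 1 library. List medians changed sign under at least 1 setting for tuft transcription factors, AP-1 factors, ERK feedback, mitosis, p53 targets and kidney markers, and for no other list.

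Same-numbered WT and L191A libraries had correlations of deviations of −0.012, −0.0414 and −0.217. Those of different number had −0.102 to 0.177. These values show no pairing by number, but deviations within groups of 3 cannot exclude one. With the replicate block, calls were 1246 higher and 1454 lower, 188 with sgRosa and 369 for the interaction. Of the 126 genes followed, the block took the call from 10, TPM as deposited from 15, and leaving out 1 L191A library from 20 to 22.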

Other observations

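Genes that moved against the EV response were chosen for description after their values were seen. Among genes at least 2-fold lower in L191A, 15 were called higher in EV cells with sgPOU2F3. LGALS1, the lectin galectin 1, was 4.17 ± 2.11 scaled TPM in EV cells with sgRosa and 19.03 ± 4.56 with sgPOU2F3, but 20.6 ± 7.95 in WT and 8.16 ± 1.48 in L191A (SD, n = 3). POPDC3, a membrane protein of muscle, was 5.57 ± 0.738 in EV cells with sgPOU2F3, 29.9 ± 4.17 in WT and 11.1 ± 1.03 in L191A. HMOX1, heme oxygenase 1, was 12.5 ± 1.91 in WT and 5.52 ± 0.8196 in L191A, above its EV level of 2.63 ± 0.707 with sgRosa. Among genes at least 2-fold higher in L191A, 7 were called lower in EV cells. PTPRD, a receptor phosphatase, was 7.43 ± 1.64 in WT and 22.5 ± 0.581 in L191A, beside 4.43 ± 0.564 in EV cells with sgRosa and 2.88 ± 0.494 with sgPOU2F3. AMPH, the membrane-bending protein amphiphysin, was 5.87 ± 0.899 in EV cells with sgRosa, 0.458 ± 0.157 with sgPOU2F3, 1.32 ± 0.0424 in WT and 3.99 ± 0.521 in L191A.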
